A study of Gallus gallus with 24 samples.

Results

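Fayoumi cecum at 16 h was compared with Fayoumi cecum at 2 h, using 4 of the 24 spotted arrays of the series, 2 for each time. The 4 arrays were chosen by their titles. They were read over 15609 probes of the 15769 rows, after 160 control spots had been left out. Each array carried RNA of 3 Fayoumi chicks challenged with SE at day 1 in the first channel and RNA of 3 unchallenged Fayoumi chicks in the second. SE is an abbreviation that the labels do not expand. The cecum was collected 16 h after challenge for 1 pair of arrays and 2 h after challenge for the other, and at each time 1 array was titled as a replicate. The rest of the series holds the same design in Leghorn (G-B1 in the labels) and broiler chicks and in spleen. The birds of a channel were pooled on 1 slide, and the labels do not say whether the replicate arrays carried other birds. The spread that enters the p-values is thus only that between arrays, and it may be technical.

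The ceca of a chicken are a pair of blind pouches at the junction of the small and large intestine. They hold a dense microbial population, and the cecal tonsils at their base are among the largest lymphoid tissues of the avian gut. Fayoumi is an Egyptian breed and Leghorn an egg-laying breed, while broilers are bred for meat. A spotted 2-colour array reports, for each probe, how bright the RNA of one channel was relative to the RNA of the other on the same spot. A log2 ratio of 1 on such an array is a doubling in one channel over the other. In a whole tissue such as the cecum, a change in the number of cells of a type and a change in RNA per cell cannot be told apart.

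The deposited values are read here as log2 ratios. No source used here gives the direction of the ratio, and in 5 of the 11 groups with a pair of arrays the pair correlated at less than -0.3, so a positive value is not read as more RNA in challenged birds. The median of the 15609 probes was subtracted on each array, and a value given below is a centred log2 ratio unless it is called a difference. The probes carry clone names, and the file does not pair them with genes. The chicken gene table of RefSeq held 0 of the 15769 identifiers. The results are therefore given for probes and for the groups of clones that share the start of a name, and the labelled tissue could not be checked against marker genes.

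By the standard deviation, ratios were spread more widely at 16 h than at 2 h, and the extra spread lay on the positive side. The standard deviation over probes was 0.72 and 0.78 on the 2 arrays at 16 h, against 0.52 and 0.44 on the 2 arrays at 2 h. It ran from 0.28 to 1.21 over the 23 usable arrays of the series. The quartiles of the first arrays were about equally far apart, at -0.28 and 0.39 at 16 h and at -0.35 and 0.33 at 2 h. On the replicate arrays they were -0.37 and 0.83 at 16 h, against -0.24 and 0.29 at 2 h. On the first array at 16 h, 1729 probes (11.1%) lay above 1 and 333 (2.13%) below -1. On the replicate array at 16 h, 3148 probes (20.2%) lay above 1 and 60 (0.384%) below -1. At 2 h the first array had 245 probes (1.57%) above 1 and 558 (3.57%) below -1, and the replicate array had 434 (2.78%) above 1 and 41 (0.263%) below -1. Both arrays at 16 h thus had more probes above 1 than either array at 2 h, while the numbers below -1 overlapped between the times. Both 16 h arrays put the same 1314 probes (8.42%) above 1, and 13 of these were also above 1 on at least 1 of the 2 h arrays. A further 1834 probes were above 1 on the 16 h replicate array alone and 415 on the first array alone.

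**Figure D1:**
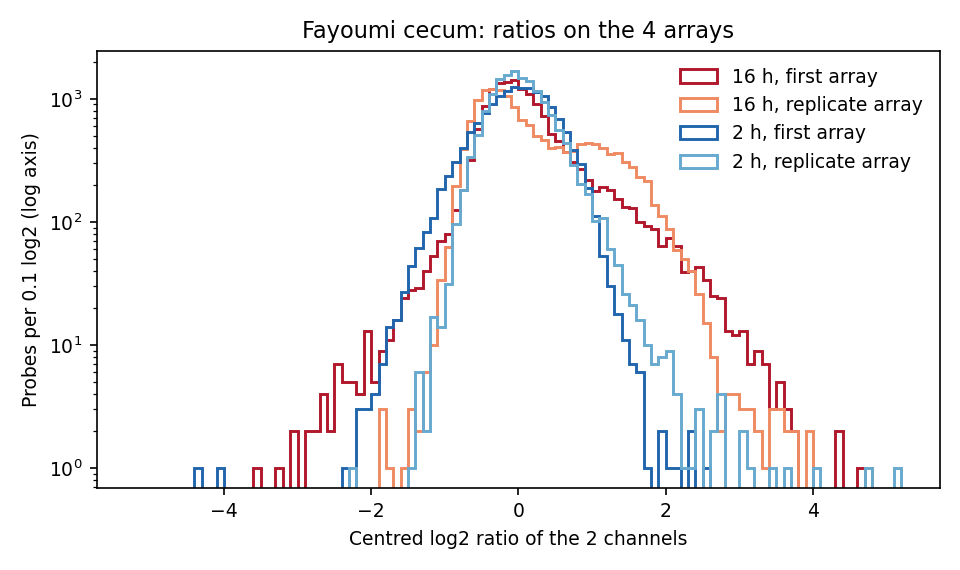
Number of probes (vertical axis, logarithmic, per 0.1 log2) at each centred log2 ratio (horizontal axis) on the 2 arrays of Fayoumi cecum at 16 h and the 2 arrays at 2 h. The 16 h lines lie above the 2 h lines between 1 and 2, and the 16 h replicate array has a shoulder near 1.

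Over all probes, arrays of 1 time correlated positively and arrays of different times negatively, though weakly so for the first array at 16 h. The agreement within each pair was known when the comparison was chosen, so it is a description and not a test. In 5 of the 11 groups with a pair of arrays, the pair correlated at less than -0.3. Across the 15609 probes, which are not independent replicates and share the slide and its spots, the 2 arrays at 16 h correlated at 0.54 (Pearson's r) and the 2 at 2 h at 0.28. The first array at 16 h correlated at -0.10 and -0.15 with the first and replicate arrays at 2 h, and the replicate array at 16 h at -0.38 with each of them. The mean ratios of the 2 times correlated at -0.37. Within clone groups, the correlation of these means was -0.39 for C00041 clones and -0.33 for DT40subNB clones, but 0.15 for Pat clones and 0.03 for DKFZ426 clones. A typical probe differed by 0.39 between the 2 arrays at 16 h and by 0.37 between the 2 at 2 h (median absolute difference), and by 0.58 between the means of the 2 times.

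The signs showed the same opposition. At 16 h, 5235 probes (33.5%) were positive on both arrays and 5234 (33.5%) negative on both. At 2 h the numbers were 4717 (30.2%) and 4718 (30.2%). Of the probes positive on both arrays at 16 h, 2470 (47.2%) were negative on both arrays at 2 h and 567 (10.8%) positive on both. Of those negative on both arrays at 16 h, 2653 (50.7%) were positive on both at 2 h and 613 (11.7%) negative on both. Since 2 of the correlations between times were below -0.3, the counts of probes, the named probes and the clone groups are also given with the signs of the 2 h arrays turned, the case in which the channels had been divided the other way round at that time.

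**Figure D2:**
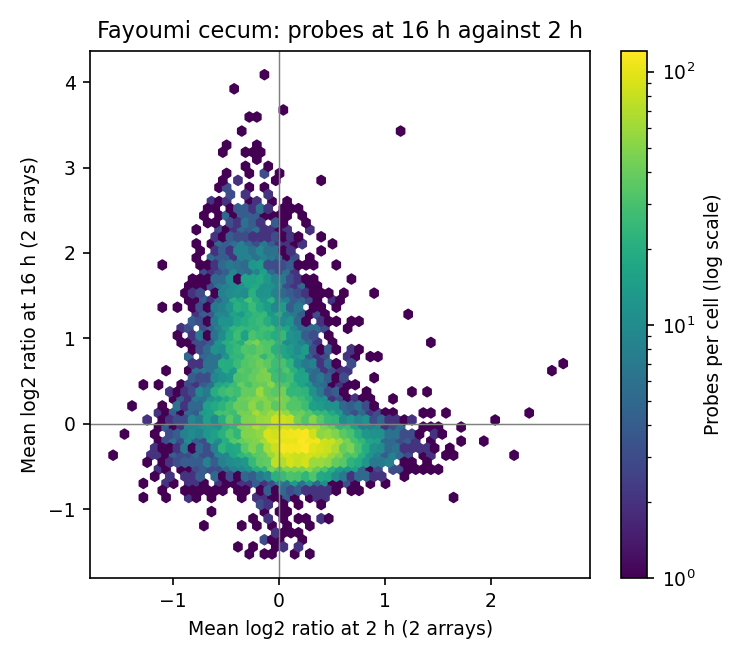
Mean centred log2 ratio of each probe at 16 h (vertical axis) against its mean at 2 h (horizontal axis) in Fayoumi cecum, with colour for the number of probes in a cell of the plot (logarithmic scale). The probes with the highest means at 16 h lie near or left of 0 at 2 h, and those with the highest means at 2 h lie near or below 0 at 16 h, with few exceptions.

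The difference between the times was tested for each probe with limma on all 23 usable arrays, with Benjamini-Hochberg adjustment over all probes. No probe passed an adjusted p of 0.05 in either direction (0 of 15609, or 0%), and the smallest adjusted p was 0.123. At an unadjusted p below 0.05 there were 1985 probes (12.7%). The nominal number by chance is 780, but the time differences of the other groups fell below it in this fit, as given below. The distance from 780 is therefore not read as an excess over chance. Of the 1985 probes, 1845 (11.8%) had a higher ratio at 16 h and 140 (0.897%) a lower one. The differences ran from -2.62 to 4.36, with a median over all probes of 0.03. They exceeded 2 for 526 probes (3.37%) and were below -2 for 6 (0.0384%), exceeded 3 for 43 and were below -3 for 0. The 95% interval of a probe's difference had a median half-width of 1.24, so a difference of 1 was not detectable for a typical probe in this fit. All 12 groups shared the estimate of the spread. It came from the 11 groups with a pair of arrays, among them the 5 whose pair correlated at less than -0.3.

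The count of 0 changed with the setting of the fit. Fitted on the 4 Fayoumi cecum arrays alone, 1388 probes passed in limma's test, of which 1342 (8.6%) had a higher ratio at 16 h and 46 (0.295%) a lower one. The agreement within the pairs was known when the comparison was chosen, and this fit takes its spread from those pairs alone. Its count is therefore in part built in. With array weights 1632 passed, 1559 (9.99%) higher and 73 (0.468%) lower. Array weights favour arrays that agree within their group, so the same limit holds for this count. With the first principal component of the spleen arrays removed from every array, 644 passed, 625 (4%) higher and 19 (0.122%) lower. With the median of the control spots named for plant genes as a covariate, 408 passed, 402 (2.58%) higher and 6 (0.0384%) lower. With arrays scaled to a common spread 19 (0.122%) passed, and with the array order as a block in each tissue and time 15 (0.0961%), all higher. Without either Leghorn cecum array at 16 h, a pair that correlated at -0.31, 143 passed, 142 (0.91%) higher and 1 (0.00641%) lower, C0004126_L17. With the signs of the 2 h arrays turned 0 passed, and 935 were at an unadjusted p below 0.05, 861 (5.52%) higher and 74 (0.474%) lower.

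The 4 settings with the largest counts shared 395 probes, 390 with a higher and 5 with a lower ratio at 16 h. The 390 were chosen for a higher ratio at 16 h on these same arrays, so their signs and medians are in part built in. All 390 were positive on both arrays at 16 h, where 33.5% of all probes were. Of the 390, 294 were negative on both arrays at 2 h, where 30.2% of all probes were. Their median of the mean ratios was 1.99 at 16 h and -0.36 at 2 h, and their differences ran from 1.32 to 4.36 with a median of 2.36. The 5 lower probes had a median of -0.46 at 16 h and 1.37 at 2 h. They were C0004126_L17 and C0004128_C6, described below, with C0004105_M13, C0004125_C18 and Pat-21_f10, named after their values were seen. Pat-21_f10 had -0.35 and -1.01 at 16 h, against 0.88 and 0.83 at 2 h. Each of the settings uses the same 4 Fayoumi arrays, so the shared probes are not independent evidence of a difference.

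The probes named here are the 2 with the smallest p in each direction, since none passed the threshold. C0004129_B1 had ratios of 3.75 and 2.58 at 16 h, against -0.76 and -0.32 at 2 h. The times did not overlap, and the difference was 3.71 (SE 0.62, 95% interval 2.41 to 5.01, n = 2 arrays each, limma adjusted p = 0.123). Pat_10F9 had 2.02 and 2.23 at 16 h, against -0.80 and -0.42 at 2 h. Its arrays at 16 h were close together, and the difference was 2.74 (SE 0.49, 95% interval 1.71 to 3.77, n = 2 arrays each, limma adjusted p = 0.123). Both probes were thus far from 0 at 16 h and moderately negative at 2 h.

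In the other direction, C0004128_C6 had -0.03 and -0.51 at 16 h, against 1.20 and 1.77 at 2 h. Its difference was -1.76 (SE 0.41, n = 2 arrays each, limma adjusted p = 0.158). C0004126_L17 had -0.19 and -0.73 at 16 h, against 1.56 and 1.19 at 2 h, a difference of -1.83 (SE 0.43, n = 2 arrays each, limma adjusted p = 0.158). Each of these 2 probes lay farther from 0 at 2 h than at 16 h, and neither overlapped between the times. All 4 probes passed in the fit on the 4 arrays alone, with limma adjusted p-values of 0.0118 for C0004129_B1 and Pat_10F9, 0.0272 for C0004128_C6 and 0.0227 for C0004126_L17. They had been picked for a small p in a fit that holds the same 4 arrays, so this is not independent support. With the signs of the 2 h arrays turned, the differences of C0004128_C6 and C0004126_L17 became 1.22 and 0.91, those of C0004129_B1 and Pat_10F9 2.62 and 1.51 (limma adjusted p = 0.531 and 0.639).

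Outside Fayoumi cecum, C0004129_B1 and Pat_10F9 had smaller ratios at 16 h. Both had been picked for a small p of the Fayoumi cecum difference. Smaller ratios elsewhere are likely after such a pick, and they are not read as a trait of Fayoumi cecum. C0004129_B1 had -0.82 and 1.11 in Leghorn cecum, -0.48 on the single broiler cecum array and 0.19 and -0.07 in Fayoumi spleen, all at 16 h. Pat_10F9 had -0.06 and 0.80 in Leghorn cecum, -0.31 in broiler cecum and -0.19 and 0.51 in Fayoumi spleen. In broiler cecum at 2 h, C0004128_C6 had 0.57 and 1.11 and C0004126_L17 had 0.52 and 0.67, so all 4 broiler values had the sign of the Fayoumi arrays at that time. In Leghorn cecum at 2 h, C0004128_C6 had -0.47 and -0.17 and C0004126_L17 had -0.50 and -0.49. None of the 4 probes passed a test of the difference between groups (smallest limma adjusted p = 0.447, for C0004129_B1 in Fayoumi against Leghorn).

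**Figure D3:**
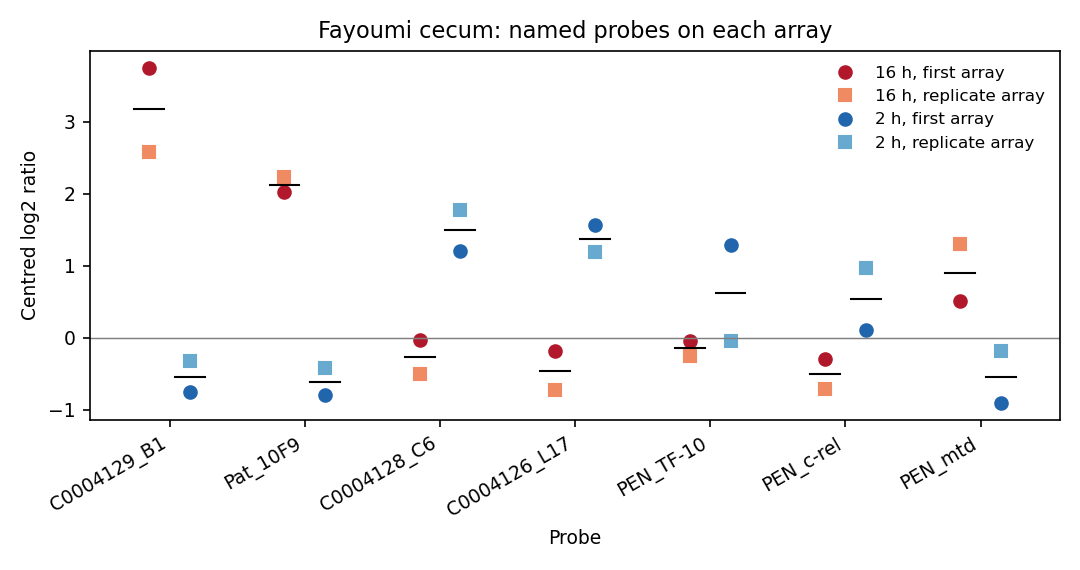
Centred log2 ratio (vertical axis) of 7 probes on each Fayoumi cecum array, with circles for the first arrays, squares for the replicate arrays and black bars for the means of 2 arrays, 16 h left of 2 h. The 16 h and 2 h points are apart for 6 of the 7 probes and overlap for PEN_TF-10. Over all probes, the 2 times were apart for 30.6% with a higher and 30.5% with a lower ratio at 16 h. The probes not named PEN were picked for a small p in a fit that holds these arrays, so their gap is in part built in.

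Only the 3 probes named PEN carry a name that may be read as a gene's, and no source used here says whether the spots hold those genes. c-rel is the name of a member of the NF-kB family, transcription factors that act in lymphocytes and in inflammation. PEN_c-rel had -0.29 and -0.72 at 16 h, against 0.11 and 0.97 at 2 h. The times did not overlap, and the difference was -1.04 (SE 0.48, 95% interval -2.07 to -0.02, n = 2 arrays each), with a limma adjusted p of 0.382. PEN_mtd had 0.51 and 1.30 at 16 h, against -0.91 and -0.18 at 2 h, a difference of 1.45 (SE 0.60, n = 2 arrays each, limma adjusted p = 0.305). PEN_TF-10 had -0.05 and -0.25 at 16 h, against 1.29 and -0.05 at 2 h. Its arrays overlapped in range at the 2 times, and the difference was -0.77 (SE 0.54, n = 2 arrays each, limma adjusted p = 0.618). Turning the signs of the 2 h arrays gave differences of 0.04 for PEN_c-rel, 0.35 for PEN_mtd and 0.47 for PEN_TF-10. For PEN_c-rel the time differences of the other groups were -0.37 in Leghorn cecum, -0.85 in broiler cecum and -0.03 in Fayoumi spleen. In the same order they were 0.41, 0.58 and 0 for PEN_mtd and 1.30, -0.15 and -0.42 for PEN_TF-10. The sign of PEN_TF-10 in Leghorn cecum was thus opposite to that in Fayoumi cecum. An exact permutation test of 2 arrays against 2 cannot give a p below 0.333, so none was run.

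The probes that passed against 0 at 16 h did not stand out in the same direction at 2 h. At 16 h, 499 probes (3.2%) passed with a positive ratio in limma's test against 0 and 1 (0.00641%) with a negative one, and at 2 h none passed (0), with 347 at an unadjusted p below 0.05 (227 positive, or 1.45%, and 120 negative, or 0.769%). At an unadjusted p below 0.05 there were 2390 positive (15.3%) and 27 negative (0.173%) probes at 16 h. The 499 were chosen on the 16 h arrays, where their medians were 2.06 and 1.87. On the 2 h arrays, which had no part in that choice except through the shared estimate of the spread, their medians were -0.16 and -0.28. Of the 499, 276 (55.3%) were negative on both 2 h arrays and 29 (5.81%) positive on both, against 30.2% and 30.2% of all probes. By clone group, 68.1% of the 185 DT40subNB clones among them were negative on both 2 h arrays, beside 48.8% of all DT40subNB clones. For C00041 it was 45.7% of 219, beside 21.1% of all, and for DKFZ426 57.9% of 19, beside 51.3%. For Pat it was 51.3% of 76, beside 61.8%, so among Pat clones the share was lower than in the whole group. The mean ratios of the 499 at 2 h ran from -1.12 to 1.13, with 5% below -0.58, the same bound as over all probes, and 5% above 0.16, where the bound over all probes was 0.66. The 1 negative probe, C0004105_G5, had -1.81 and -0.87 at 16 h, against 0.19 and -0.13 at 2 h.

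In the reverse view, the 227 probes positive at an unadjusted p below 0.05 at 2 h had a median of the mean ratios of -0.13 at 16 h, against 0.94 at 2 h. By array their medians at 16 h were 0.05 and -0.35. Of these, 19 (8.37%) were positive and 78 (34.4%) negative on both arrays at 16 h, where 33.5% and 33.5% of all probes were. The 120 negative ones had a median of the mean ratios of -0.04 at 16 h, against -0.95 at 2 h. Their medians at 16 h lay on both sides of 0, at -0.51 for the first array and at 0.48 for the other, and 23 (19.2%) were positive and 20 (16.7%) negative on both arrays at 16 h.

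Clone groups differed in how many of their probes had a higher ratio at 16 h. DT40subNB clones had an unadjusted p below 0.05 with a higher ratio at 16 h for 509 of 1798 probes (28.3%), Pat clones for 370 of 1983 (18.7%), DKFZ426 clones for 65 of 378 (17.2%) and C00041 clones for 900 of 11447 (7.86%), beside 11.8% of all probes. Lower ratios at 16 h were found for 135 C00041 clones (1.18%), 2 DT40subNB (0.111%), 1 Pat (0.0504%) and 1 DKFZ426 clone (0.265%), beside 0.897% of all probes, and PEN_c-rel was the remaining probe. The 4 clones, named after their values were seen, were DT40subNB_3H7, DT40subNB_13D7, Pat-21_f10 and DKFZ426_20A10. DT40subNB_3H7 had -0.95 and -0.71 at 16 h, against 2.38 and 0.92 at 2 h, and its difference of -2.48 was not past the threshold (limma adjusted p = 0.376). A B cell line of the chicken is called DT40, but the origin of the clones named DT40subNB was not stated. The 2 arrays at 16 h lay above both arrays at 2 h for 939 DT40subNB (52.2%), 909 Pat (45.8%), 159 DKFZ426 (42.1%) and 2767 C00041 clones (24.2%), beside 4775 (30.6%) of all probes. They lay below both for 214 DT40subNB (11.9%), 97 Pat (4.89%), 33 DKFZ426 (8.73%) and 4417 C00041 clones (38.6%), beside 4762 (30.5%) of all probes. Above a difference of 2 were 226 DT40subNB clones (12.6%), 82 Pat clones (4.14%), 14 DKFZ426 clones (3.7%) and 204 C00041 clones (1.78%), beside 3.37% of all probes. In the fit on the 4 arrays alone, 437 DT40subNB clones (24.3%), 274 Pat clones (13.8%), 47 DKFZ426 clones (12.4%) and 584 C00041 clones (5.1%) passed with a higher ratio, beside 8.6% of all probes. That fit takes its spread from pairs known to agree, so these counts are in part built in. Turning the signs of the 2 h arrays left an unadjusted p below 0.05 with a higher ratio for 226 DT40subNB (12.6%), 35 DKFZ426 (9.26%), 127 Pat (6.4%) and 473 C00041 clones (4.13%), beside 5.52% of all probes. With a lower ratio it left 51 Pat (2.57%), 7 DT40subNB (0.389%), 16 C00041 (0.14%) and 0 DKFZ426 clones (0%), beside 0.474% of all probes. Probes of 1 array share it, so these shares are a description of the 4 arrays with no test.

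The medians of the clone groups shifted with time as well. DT40subNB clones had medians of 0.26 and 0.69 at 16 h, against -0.23 and -0.14 at 2 h, and DKFZ426 clones had 0.16 and 0.69 at 16 h, against -0.26 and -0.13 at 2 h. Pat clones had 0.01 and 0.86 at 16 h, against -0.48 and -0.17 at 2 h, so the first array at 16 h was close to 0. C00041 clones had -0.02 and -0.15 at 16 h, against 0.12 and 0.07 at 2 h. With 73.3% of the probes in this group, subtracting the median of an array forces its sign opposite to that of the remaining clones. The median differences were 0.68 for DT40subNB, 0.72 for Pat, 0.62 for DKFZ426 and -0.20 for C00041 clones. Without the replicate array at 16 h they were 0.44, 0.27 and 0.30 for the DT40subNB, Pat and DKFZ426 clones, and without the first array at 16 h they were 0.94, 1.26 and 0.96. With the signs of the 2 h arrays turned, the median differences were 0.30 for DT40subNB, 0.10 for Pat, 0.18 for DKFZ426 and 0.11 for C00041 clones.

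**Figure D4:**
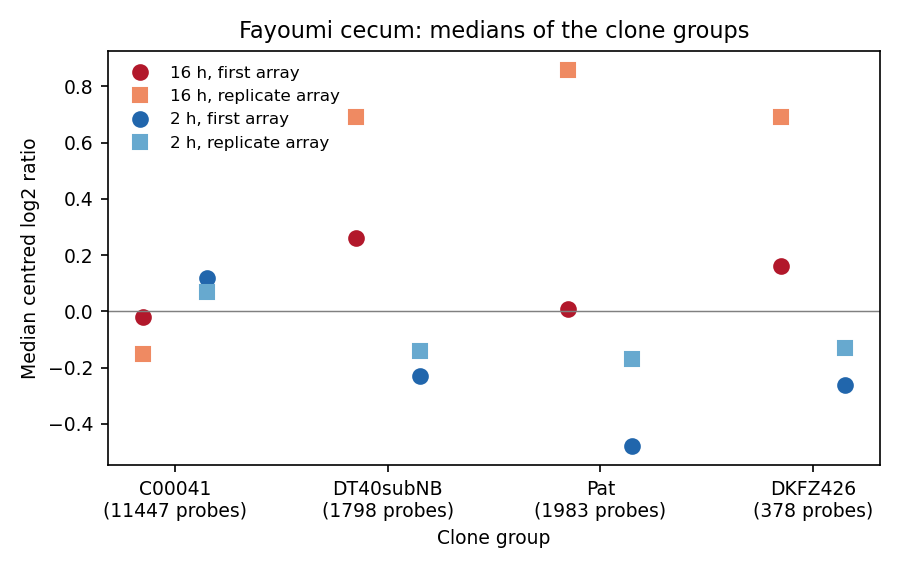
Median centred log2 ratio (vertical axis) of the 4 clone groups (horizontal axis, with the number of probes) on each Fayoumi cecum array, circles for the first arrays and squares for the replicate arrays, 16 h left of 2 h. In DT40subNB, Pat and DKFZ426 clones both 16 h points lie above both 2 h points, the lowest of them at 0.01 for Pat, and in C00041 clones they lie below.

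The shift of a clone group was spread over its plates, as the clone names give them. All 18 DT40subNB plates with at least 20 probes had a positive median difference, from 0.33 to 1.02, and so had all 20 Pat plates, from 0.39 to 0.97. Of the 30 C00041 plates, 27 had a negative and 3 a positive median difference, over a range of -0.44 to 0.25. When the signs of the 2 h arrays were turned, all 18 DT40subNB plates had a positive median difference, from 0.13 to 0.68, and so had 16 of the 20 Pat plates, over a range of -0.18 to 0.35, and all 30 C00041 plates, from 0.03 to 0.26. Within the C00041 plates, the medians of the 16 rows of wells ran from -0.41 to 0.22 and those of the 24 columns from -0.29 to -0.06. The distance between the highest and lowest row was thus close to that between the highest and lowest plate.

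A probe above 1 at 16 h was common in the clone groups outside C00041. On the first and replicate arrays at 16 h, 28% and 40.3% of the DT40subNB clones, 16.3% and 40.5% of the Pat clones, 18.8% and 34.4% of the DKFZ426 clones and 7.26% and 13% of the C00041 clones lay above 1. At 2 h the shares were 0.111% and 0.501% for DT40subNB, 0.0504% and 0.303% for Pat, 0% (0 of 378) and 1.59% for DKFZ426, and 2.11% and 3.61% for C00041 clones. Below -1, as would count with the sign turned, were 4.06% and 0.222% of the DT40subNB clones, 15.5% and 0.303% of the Pat clones, 11.1% and 0% (0 of 378) of the DKFZ426 clones and 1.19% and 0.271% of the C00041 clones at 2 h.

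The control spots differed between the 2 pairs of arrays too. The 128 spots named for the plant genes Cab, NAC1, PRKase or RUBISCO had centred medians of -0.13 and -0.40 at 16 h, against 0.33 and 0.46 at 2 h. The 32 spots named for chicken genomic DNA had -0.41 and -0.20 at 16 h, against -0.06 and 0.17 at 2 h. In both sets the arrays of the 2 times did not overlap, and their part in the differences between times was not tested beyond the fit with the plant spots as a covariate, given above. The deposited medians of the arrays were -1.04 and 0.56 at 16 h, against -0.39 and 0.71 at 2 h. The slides at 16 h were numbers 1743 and 1744, and those at 2 h numbers 1736 and 1787. Each slide held 1 array, so a slide effect and the array cannot be told apart.

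The time difference was tested in the same model in the other groups as well. In Leghorn cecum 0 probes passed in limma's test, and 145 (0.929%) had a higher and 204 (1.31%) a lower ratio at 16 h at an unadjusted p below 0.05. In broiler cecum, with 1 array at 16 h, 0 passed, and the unadjusted counts were 268 (1.72%) higher and 98 (0.628%) lower. In Fayoumi spleen 0 passed, and the counts were 16 (0.103%) and 22 (0.141%). The unadjusted count of Fayoumi cecum was thus the only one of the 4 above the nominal 780, with centred arrays and signs as deposited. The totals of the others were 349 in Leghorn cecum, 366 in broiler cecum and 38 in Fayoumi spleen. All lay below 780, so the nominal number is not a working chance level for this fit. The count of Fayoumi cecum was 177 without centring and 250 with the signs of the replicate arrays turned. The pairs of Fayoumi cecum correlated at 0.54 at 16 h and 0.28 at 2 h, and those of Leghorn cecum at -0.31 and 0.09. Those of Fayoumi spleen correlated at -0.65 and -0.51, and the pair of broiler cecum at 2 h at 0.29. Fayoumi cecum was chosen with the agreement within its pairs known, so its larger count is a description and not a test. What part the agreement within pairs had in these counts was not tested.

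**Figure D5:**
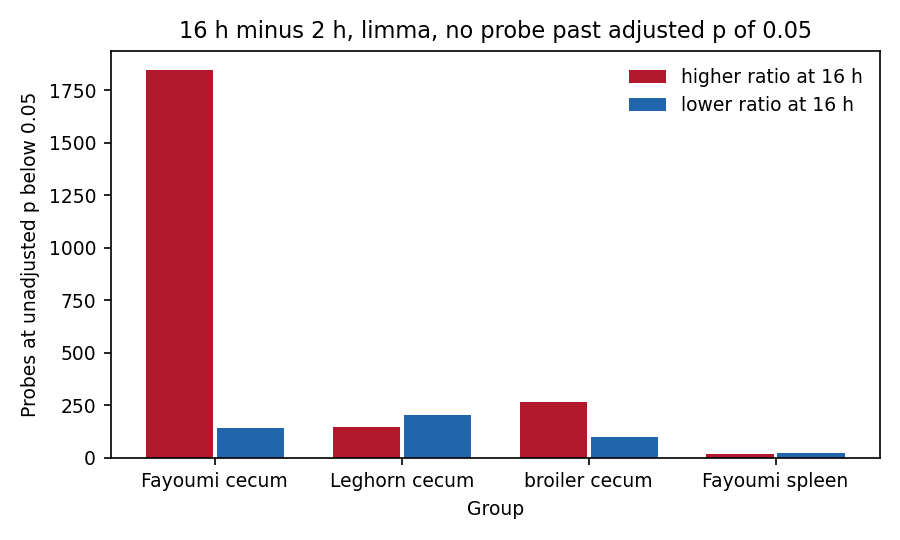
Number of probes at an unadjusted limma p below 0.05 (vertical axis) with a higher or lower ratio at 16 h than at 2 h, in 4 groups of line and tissue. Fayoumi cecum has 1845 higher and 140 lower probes, and the other groups have at most 268 in a direction.

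The difference between groups was then tested itself. Fayoumi against Leghorn, the time difference of the cecum passed for 0 probes in limma's test, with a smallest adjusted p of 0.447 and 1148 probes at an unadjusted p below 0.05, 1003 (6.43%) with a larger difference in Fayoumi and 145 (0.929%) with a smaller one. Fayoumi against broiler, 0 passed and 549 were at an unadjusted p below 0.05, 458 (2.93%) larger and 91 (0.583%) smaller. Without centring this split was 6 larger and 22 smaller. Cecum against spleen within Fayoumi, 0 passed and 553 were at an unadjusted p below 0.05, 505 (3.24%) larger and 48 (0.308%) smaller. The 2 arrays of Fayoumi spleen correlated at -0.65 at 16 h and -0.51 at 2 h, and with the signs of the replicate arrays turned 1341 were at an unadjusted p below 0.05, 290 larger and 1051 smaller. For these differences the 95% intervals had median half-widths of 1.76, 1.96 and 1.76. With the signs of the Fayoumi cecum arrays at 2 h turned, 0 probes passed in each of the 3, and 578, 528 and 268 were at an unadjusted p below 0.05. In these fits the time difference of Fayoumi cecum was not shown to exceed that of Leghorn or broiler cecum or of spleen. With the first component of the spleen arrays removed, 103 of the 15609 probes passed against Leghorn, 101 larger and 2 smaller, and 4 of 15609 against broiler. With a replicate block in each tissue and time, 292 of 15609 passed against Leghorn, 278 larger and 14 smaller. For cecum against spleen 18 of 15609 passed with that block, 11 larger and 7 smaller. The 4 against broiler, named after their values were seen, were Pat-19_f9, with a larger time difference in Fayoumi by 2.84, and Pat-16_d11, Pat_7D11 and Pat_7H7, with values of -3.05, -3.96 and -4.12 for Fayoumi minus broiler. Pat-19_f9 had 1.98 and 2.31 at 16 h, against -0.35 and -0.20 at 2 h in Fayoumi cecum. The other 3 differed by 0.50 or less between the Fayoumi times, so their values rest mostly on the broiler arrays, of which there was 1 at 16 h.

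Over the clone groups, the median time differences of DT40subNB, Pat and DKFZ426 clones were 0.68, 0.72 and 0.62 in Fayoumi cecum. They were -0.07, -0.11 and -0.03 in Leghorn cecum, 0.22, 0.31 and 0.27 in broiler cecum, and 0.13, 0.18 and 0.12 in Fayoumi spleen. The sign in broiler cecum and Fayoumi spleen was that of Fayoumi cecum, at smaller size, and in Leghorn cecum it was the opposite. These differences between groups were not tested. Broiler cecum had 1 array at 16 h, the pair of Leghorn cecum at 16 h correlated at -0.31, and the pairs of Fayoumi spleen at -0.65 and -0.51. The sizes and signs are therefore not read as differences between lines or tissues.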

How the data were processed

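For 24 arrays the authors deposited a table of 1 value per probe, taken here to be a log2 ratio of the 2 channels with the base inferred from the values. How the images were scanned, corrected and normalized, and the direction of the ratio, are details not given in the sources used here. One column, that of the replicate array of broiler cecum at 16 h, held the value 1 in 9194 cells and was blank in 5960 (37.8%), so it was left out and 23 arrays were used. Control spots were left out, each array was centred on its median, and all 15609 remaining probes had a value on every array. limma 3.58.1 in R 4.3.3 (lmFit, eBayes) was fitted with 12 group means, 1 per line, tissue and time (11 residual degrees of freedom), two-sided, with Benjamini-Hochberg adjustment over all probes and a threshold of 0.05. The fit was tested on simulated data. The values carry no depth, and the precision is limited by the number of arrays.

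Named probes were to be the 2 with the largest difference per direction past the threshold, or, where none passed, the 2 with the smallest p, plus the 3 PEN probes. The comparison, the lists and the settings were chosen with earlier results of these data known. Lists of immune genes, proliferation and ribosomal genes and cell type markers could not be read, since no probe was paired with a gene. Replicate arrays were named first and second in the order of the labels, which give no number. Alternatives covered centring, scaling (by each array's median absolute deviation, since the planned limma function divides by medians, which are 0 here), signs, samples in the fit, replicate blocks, array weights, shared trends, probe filters and leaving out single arrays.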

Additional observations from a re-analysis of the deposited data

Results flagged for a closer look

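In each clone group the medians of both arrays at 16 h lay on 1 side of 0 and those of both arrays at 2 h on the other, and this difference was not tested. The median differences between 16 h and 2 h were 0.68 for DT40subNB clones, 0.72 for Pat clones, 0.62 for DKFZ426 clones and -0.20 for C00041 clones. For Pat clones the median of the first array at 16 h was 0.01, and for C00041 clones it was -0.02. The 4 medians are tied to each other through the centring of each array.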

How the results depend on the processing

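The count of 0 probes between 16 h and 2 h in Fayoumi cecum (smallest limma adjusted p = 0.123, 1985 at an unadjusted p below 0.05) was also 0 as deposited (177 unadjusted), with the signs of the replicate arrays turned (250 unadjusted) or those of the 2 h arrays turned, with cecum arrays only (2435 unadjusted), with a replicate block in each tissue, and over the more variable probes alone (1186 unadjusted). The last of these fits tested fewer probes, so its 1186 cannot be set directly beside the 1985. The count was 19 with arrays scaled to a common spread, 1388 with only the groups compared, 1632 with array weights, 644 with the first component of the spleen arrays removed, 408 with plant spots as covariate and 15 with a replicate block in each tissue and time. The 1388 and the 1632 are in part built in, since the agreement within the pairs was known when the comparison was chosen. Leaving out 1 of the 23 arrays gave 0 to 143 (1027 to 2394 unadjusted); fits without an array of another group were chosen after seeing the data. The 143 came without either Leghorn cecum array at 16 h, and the only other count above 0 was 1 without the 2 h replicate array. That probe, C0004126_A24, named after its values were seen, had 3.64 and 2.83 at 16 h, against -4.09 and 3.64 at 2 h. Fayoumi against Leghorn gave 103 with the first component of the spleen arrays removed, 292 with a replicate block in each tissue and time, and 0 to 20 without single arrays (20 without the Leghorn cecum 16 h replicate array). Fayoumi against broiler gave 4 with that component removed, and cecum against spleen gave 18 with a replicate block in each tissue and time. The first-to-replicate deviations of the 2 times correlated at 0.08 over probes. With 2 pairs of centred arrays this cannot decide whether the array order pairs the arrays. The deposited medians, which centring removes, were -1.04 at 16 h and -0.39 at 2 h on the first arrays. On the replicate arrays they were 0.56 and 0.71.

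With the signs of the replicate arrays turned, the differences became 0.80 for C0004129_B1 and 0.09 for Pat_10F9 (limma adjusted p = 1 each), 0.52 for C0004128_C6, 0.08 for C0004126_L17, 0.65 for PEN_c-rel and -0.03 for PEN_mtd, and the clone medians 0.01 for C00041, -0.07 for DT40subNB, -0.20 for Pat and -0.08 for DKFZ426. With the 2 h arrays turned they became 2.62 for C0004129_B1, 1.51 for Pat_10F9, 1.22 for C0004128_C6, 0.91 for C0004126_L17, 0.47 for PEN_TF-10, 0.04 for PEN_c-rel and 0.11 for C00041, with 0.30, 0.10 and 0.18 for DT40subNB, Pat and DKFZ426. With the first component of the spleen arrays removed the clone medians were 0.18 for C00041, 0.41 for DT40subNB, 0.39 for Pat and 0.31 for DKFZ426, and over the more variable probes -0.41, 1.26, 0.98 and 0.93. C00041 was 0.03 with plant spots as covariate. As deposited, the median difference over all probes was -0.37, against 0.03 with centred arrays, and the clone medians were 0.28 for DT40subNB, 0.33 for Pat, 0.22 for DKFZ426 and -0.59 for C00041. The cause of these changes was not tested.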
